A study of Mus musculus with 6 samples.

Results

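The enzymes that write and erase histone methylation in the mouse frontal cortex were examined after chronic treatment with SAHA. The 30 genes were taken as a named list of methyltransferases, subunits of their complexes and demethylases, and 29 of them were among the 19938 genes tested. The remaining one, Ash1l, was not analysed here. SAHA (suberoylanilide hydroxamic acid, vorinostat) inhibits histone deacetylases, which take acetyl marks off histones. All mice were wild type 129S6/SvEv animals of 8 to 12 weeks. In 1 group they received 20 mg per kg SAHA, in the other vehicle, called saline in the sample titles, for 21 days, and the cortex was taken 1 day after the last dose. Each group held 3 arrays, and the labels do not state whether arrays stem from different mice, so a p-value here covers the array-to-array spread alone, which may be technical.

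Methylation of histone lysines is placed by methyltransferases, most of which carry a SET domain, and removed by demethylases, most of which carry a Jumonji domain. H3K4 methylation marks active promoters and enhancers, H3K36 and H3K79 methylation mark transcribed gene bodies, and H3K9 and H3K27 methylation mark silent chromatin. In the brain, mutations in many of these enzymes cause intellectual disability, and several of them act in neuronal maturation, memory and drug responses. RNA levels, which the arrays measure, report neither enzyme activity nor histone marks. In a dissected tissue, fewer cells of a type and less RNA per cell cannot be told apart.

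Sex-linked genes set 2 of the 6 arrays apart. Xist, the RNA of the inactive X chromosome, read 10.9 log2 on saline replicate 1, against 4.63 to 4.88 on the remaining 5 arrays. The Y-linked gene Eif2s3y was at 7.80 in SAHA replicate 3 and between 9.18 and 9.25 in the others. The enzymes' values without both arrays are given after those of the Y-linked genes. Array medians over all probe sets were 6.66, 6.70 and 6.71 in saline replicates 1 to 3 and 6.75, 6.72 and 6.74 in SAHA replicates 1 to 3. Every SAHA array thus lay above every saline array, and the part of this shift in the differences below was not tested.

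Transcripts of the histone methylation enzymes lay close to their saline level. The log2 differences, SAHA minus saline, lay between -0.21 and 0.17 over the 29 genes, with a median of -0.0083, where the median over all genes was 0.011. The 95% interval of the difference lay within 1.25-fold either way for 25 of the 29, where this held for 61.4% of all genes. Of the 9969 genes whose signal reached the median, which include 28 of the 29, it held for 7907. The other 4 were Setd2, Kdm3a, Ehmt1 and Suz12. In limma with Benjamini-Hochberg adjustment over all genes, 0 of the 29 passed an adjusted p of 0.05, the lowest being 0.159, and the background was 0% of all genes. At an unadjusted p under 0.05, Setd2 and Kdm3a were lower in SAHA and 0 were higher, or 2 of 29, where 5.56% of all genes were lower and 11.9% were higher. The SAHA and saline arrays did not overlap for 3 of the 29, Setd2, Kdm3a and Kdm2b, all lower, where the background was 10.4% of all genes lower and 13.6% higher.

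**Figure D1:**
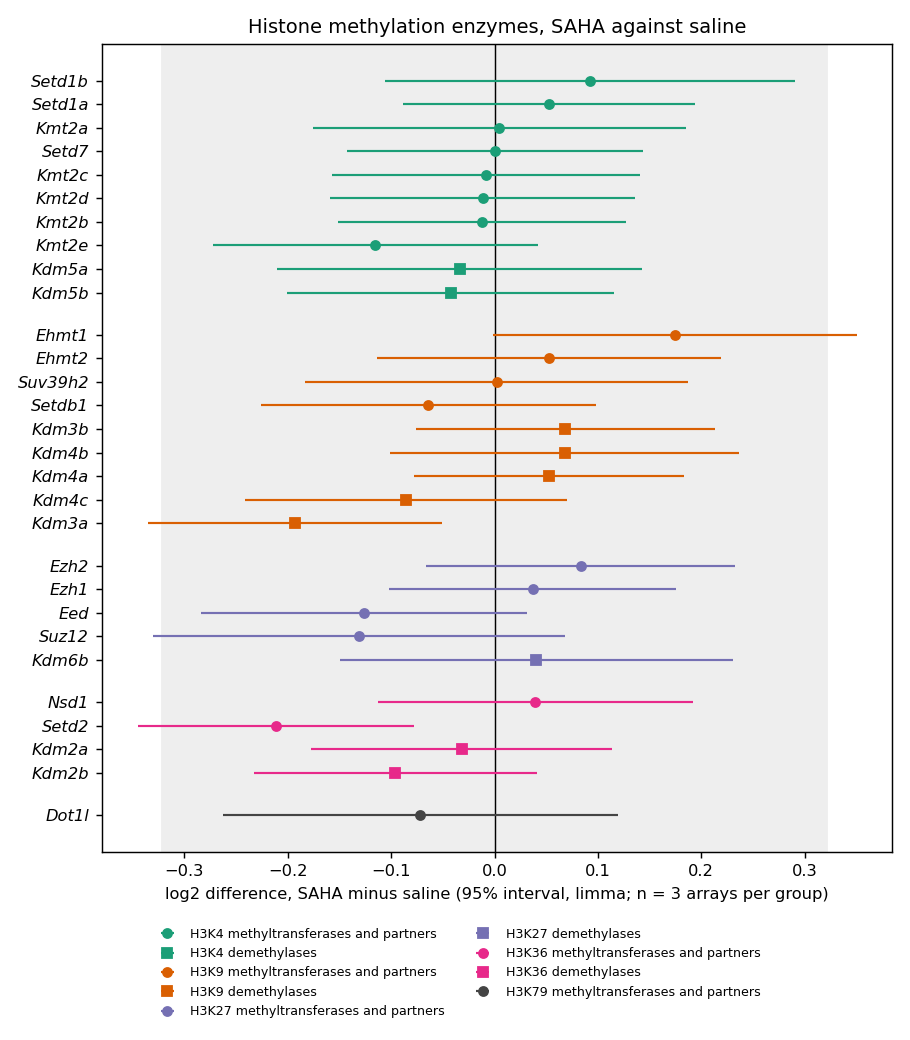
Log2 difference of each of the 29 genes, SAHA minus saline, on the horizontal axis, grouped by histone residue, with circles for methyltransferases and their partners, squares for demethylases and lines for the 95% interval of limma with 3 arrays per group. The grey band spans 1.25-fold either way (-0.32 to 0.32 on the log2 scale), and the intervals of Setd2, Kdm3a, Suz12 and Ehmt1 reach past it.

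Setd2, the main enzyme of H3K36 trimethylation, which travels with elongating RNA polymerase, differed most. Its log2 signal was 9.55, 9.52 and 9.54 in saline replicates 1 to 3 and 9.33, 9.38 and 9.27 in SAHA replicates 1 to 3. The saline arrays lay within a narrow band, and all SAHA arrays lay below it. The difference was -0.21 (SE 0.058, 95% interval -0.35 to -0.078), a level 1.16-fold higher in saline, at an unadjusted p of 0.0066 and an adjusted p of 0.159 in limma. A second probe set of Setd2, not used for the gene's value, gave 9.30, 9.30 and 9.32 in saline and 9.10, 9.17 and 9.04 in SAHA. Its difference was -0.20, and its groups did not overlap either. The difference of Setd2 stayed between -0.24 and -0.18 when each array was left out in turn, and was -0.15 after quantile normalization or cyclic loess normalization of the arrays. With a variance trend the adjusted p in limma was 0.079.

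The promoter of Setd2 is shown because it is the gene of greatest difference among the enzymes; the stretch lies upstream of the annotated gene, on the plus strand of GRCm38.p6 at chr9:110532347-110532499, from RefSeq, with CpG dinucleotides in capitals.
Setd2: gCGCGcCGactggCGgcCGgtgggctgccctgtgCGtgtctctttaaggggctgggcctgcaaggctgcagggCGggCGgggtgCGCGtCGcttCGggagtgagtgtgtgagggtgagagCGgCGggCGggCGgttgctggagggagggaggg
The 153 bases hold 16 CpG and 4 matches to GGGCGG, the GC box bound by Sp factors, counted on both strands. In the 300-base window around the annotated start, GGGCGG occurs 7 times, and 35.7% of the 32851 promoter windows of the table hold at least 1 match.

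Nsd1, which places H3K36 dimethylation, differed by 0.040 (SE 0.066), and its groups overlapped. The demethylases of this residue, Kdm2a and Kdm2b, act on the lower methylation states, and Kdm2b also recruits a Polycomb complex to CpG islands. Kdm2b was at 6.75, 6.73 and 6.83 in saline and at 6.65, 6.71 and 6.65 in SAHA. The groups lay close together without overlapping, and the difference was -0.096 (SE 0.059), at an unadjusted p of 0.145 and an adjusted p of 0.425 in limma. After quantile normalization it was -0.16, at an unadjusted p of 0.030 in limma. Kdm2b was the 1 gene of the 29 below the median signal, at percentile 44.7. Kdm2a differed by -0.032 (SE 0.063), which turned to 0.027 after quantile normalization.

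Kdm3a, a Jumonji demethylase of mono- and dimethylated H3K9 that is known to be induced by hypoxia, was the other gene with an unadjusted p under 0.05. It was at 8.39, 8.33 and 8.34 in saline and at 8.09, 8.23 and 8.17 in SAHA. All SAHA arrays were below all saline arrays. The difference was -0.19 (SE 0.061, 95% interval -0.33 to -0.051), at an unadjusted p of 0.014 and an adjusted p of 0.192 in limma. It stayed between -0.23 and -0.16 when each array was left out in turn, and was -0.15 after quantile normalization. Its paralogue Kdm3b was at 9.44, 9.55 and 9.51 in saline and at 9.50, 9.60 and 9.60 in SAHA, a difference of 0.069 (SE 0.063) with overlapping groups.

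The difference between Kdm3a and Kdm3b on the same array, which no scaling of whole arrays by a constant can change, was -1.05, -1.23 and -1.16 log2 in saline and -1.42, -1.38 and -1.43 in SAHA. These values did not overlap between the groups, and the mean moved by -0.26. The exact two-sided permutation test gave p = 0.1, the smallest that 3 arrays against 3 allow. Its adjusted p over the 8 paralogue pairs compared was 0.8. No pair could give a smaller p than 0.1 whatever its values. The test therefore cannot decide whether a pair differs between the groups, and no conclusion is drawn from it. The pairs were chosen after the values were seen. In the other 7 pairs, Kmt2a and Kmt2b, Kmt2c and Kmt2d, Setd1a and Setd1b, Kdm5a and Kdm5b, Ehmt1 and Ehmt2, Ezh1 and Ezh2, and Kdm2a and Kdm2b, the within-array values overlapped. The most even was Kmt2c against Kmt2d, at 0.48 ± 0.092 for saline and 0.48 ± 0.091 for SAHA (mean ± SD, n = 3).

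The promoter of Kdm3a is shown for comparison with that of Setd2, as the stretch upstream of the annotated gene on the minus strand of GRCm38.p6, chr6:71632991-71633167, from RefSeq, with CpG dinucleotides in capitals.
Kdm3a: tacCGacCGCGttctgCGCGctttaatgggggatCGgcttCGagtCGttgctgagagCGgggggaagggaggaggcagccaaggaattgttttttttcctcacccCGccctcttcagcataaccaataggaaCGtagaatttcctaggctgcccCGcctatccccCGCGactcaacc
The 177 bases hold 14 CpG, 1 match to GGGCGG and 1 to CCAAT, the CCAAT box, on both strands. ACGTG, the core of the hypoxia response element, has 0 matches in this stretch and occurs in 19.6% of all windows, which says only that these letters are not in this stretch. Of the 29 genes, 20 had a window in the RefSeq table, with 27 windows in all. Of these windows, 25 had more than 50% G and C and a ratio of observed to expected CpG above 0.6, where 33.3% of all windows did. The median count of CpG per 300-base window was 28 in these and 7 over all windows. TATAAA, the TATA box, occurred in 0 of the 27, where 13.6% of all windows hold it on either strand.

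**Figure D2:**
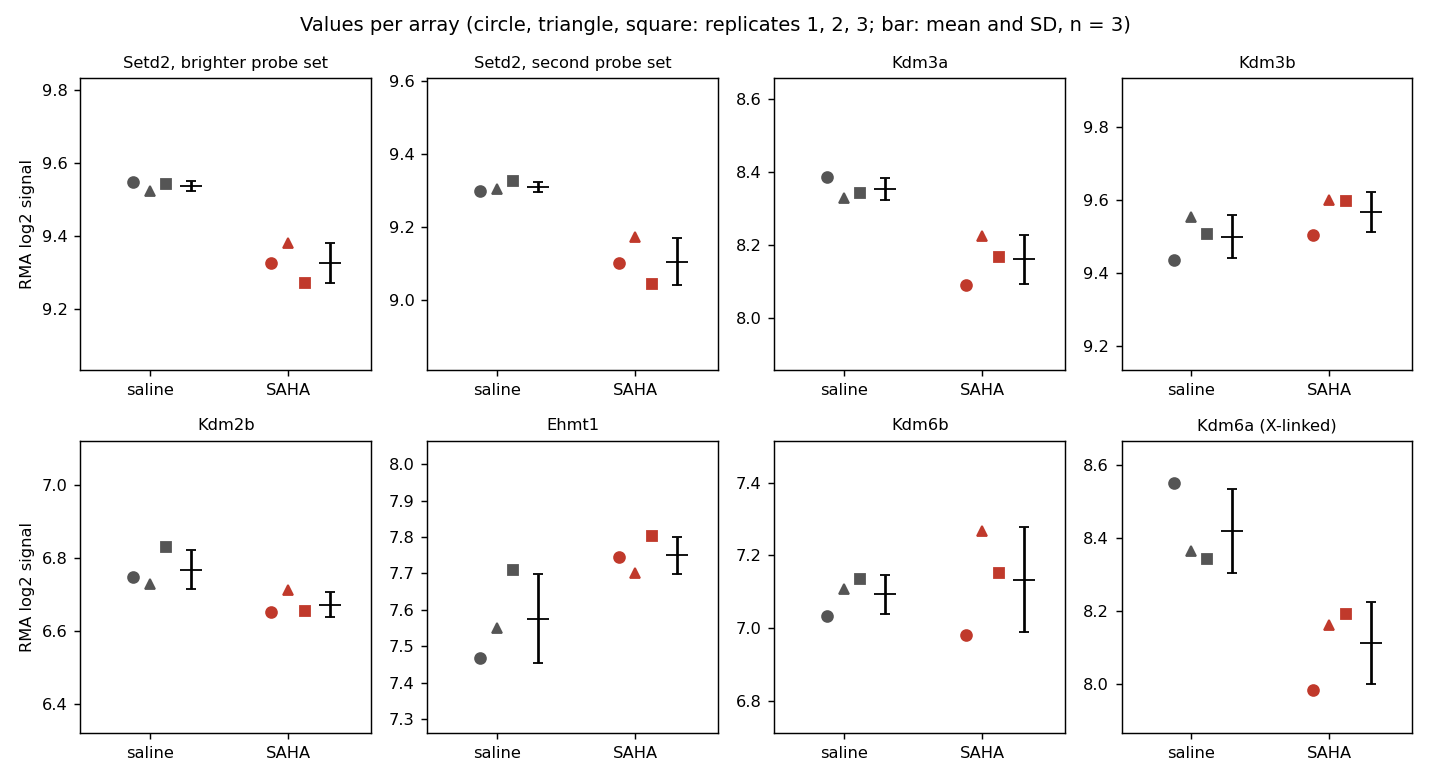
RMA log2 signal on the vertical axis for each array of saline and SAHA, for both probe sets of Setd2, for Kdm3a and its paralogue Kdm3b, and for Kdm2b, Ehmt1, Kdm6b and its X-linked paralogue Kdm6a; symbols mark replicates 1 to 3, black bars the mean and SD (n = 3), and each panel spans the same range of log2 signal. The groups do not overlap for Setd2, Kdm3a, Kdm2b and Kdm6a, and they overlap for Kdm3b, Ehmt1 and Kdm6b.

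The H3K9 methyltransferases held the gene with the greatest difference upward. Ehmt1 (GLP) forms a heterodimer with Ehmt2 (G9a) that places H3K9 dimethylation in euchromatin, and loss of its human counterpart causes Kleefstra syndrome. Ehmt1 was at 7.47, 7.55 and 7.71 in saline and at 7.74, 7.70 and 7.80 in SAHA. SAHA replicate 2 lay just under saline replicate 3, so the groups overlapped. The difference was 0.17 (SE 0.076, 95% interval -0.0016 to 0.35), at an unadjusted p of 0.052 and an adjusted p of 0.290 in limma. After quantile normalization it was 0.19, the groups no longer overlapped, and the unadjusted p in limma was 0.034. It was 0.12 without saline replicate 1 and 0.24 without saline replicate 3. Ehmt2 differed by 0.052 (SE 0.072). Setdb1, which trimethylates H3K9 at retroelements together with Trim28, differed by -0.064 (SE 0.070), and Suv39h2, an enzyme of pericentromeric heterochromatin, by 0.0021 (SE 0.080).

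The Kdm4 demethylases remove trimethylation from H3K9 and H3K36. Kdm4a and Kdm4b differed by 0.053 (SE 0.056) and 0.068 (SE 0.073), and Kdm4c by -0.086 (SE 0.067). Their groups overlapped. Of the 9 genes of H3K9, 6 were higher and 3 lower in SAHA, with a median of 0.052, and 1 of the 9, Kdm3a, was at an unadjusted p under 0.05, where 17.4% of all genes were.

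The 10 H3K4 genes had the smallest median absolute difference of the residue groups with more than 1 gene. They had a median difference of -0.010 and a median absolute difference of 0.023, where that was 0.093 over all genes and 0.067 over the genes of the 3 brightest signal deciles. All 10 intervals lay within 1.25-fold, where 61.4% of all genes did. The groups overlapped for each gene, where 23.9% of all genes were without overlap. Of the 10, 7 lie above the upper quartile of the signal. In the 3 brightest deciles, 5081 of the 5981 genes had intervals within 1.25-fold and 1467 were without overlap. After quantile normalization the median of the 10 was 0.050, and 2 of the 10 were lower in place of 6. Kmt2a and Kmt2b, which methylate H3K4 at promoters, differed by 0.0047 (SE 0.078) and -0.012 (SE 0.060). Kmt2c and Kmt2d, which monomethylate H3K4 at enhancers, differed by -0.0083 (SE 0.064) and -0.012 (SE 0.064). A second probe set of Kmt2d differed by 0.091, with SAHA higher and the groups close together but not overlapping. Kmt2a was uneven among the saline arrays, at 9.65, 9.80 and 9.92, against 9.75, 9.83 and 9.79 in SAHA, so its SAHA arrays lay inside the saline range.

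Setd1a and Setd1b, the catalytic subunits of the complexes that place most H3K4 trimethylation, differed by 0.052 (SE 0.061) and 0.092 (SE 0.086). The difference of Setd1b was 0.024 without saline replicate 1 and 0.18 without saline replicate 2. A second, dimmer probe set of Setd1b gave a difference of 0.19, with 7.17, 7.36 and 7.24 in saline and 7.40, 7.49 and 7.44 in SAHA, and its groups did not overlap, while those of the brighter one did. Setd7, a monomethyltransferase with many substrates other than histones, differed by 0.00056 (SE 0.062). Kmt2e, which binds trimethylated H3K4 through its PHD finger, was at 10.56, 10.53 and 10.56 in saline and at 10.35, 10.55 and 10.41 in SAHA. SAHA replicates 1 and 3 were below the saline arrays and SAHA replicate 2 was among them, and the difference was -0.12 (SE 0.068). Leaving out SAHA replicate 1 gave -0.073 and leaving out SAHA replicate 2 gave -0.17, and its unadjusted p in limma was 0.030 in the second case and 0.038 with a variance trend. The H3K4 demethylases Kdm5a and Kdm5b differed by -0.034 (SE 0.076) and -0.043 (SE 0.068).

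The subunits of Polycomb repressive complex PRC2, which places H3K27 methylation, did not share a direction. Its alternative catalytic subunits Ezh1, which prevails in mature neurons, and Ezh2, which prevails in dividing cells, differed by 0.037 (SE 0.060) and 0.083 (SE 0.065). Suz12, the scaffold of the complex, was at 9.67, 9.73 and 9.64 in saline and at 9.40, 9.71 and 9.54 in SAHA. SAHA replicate 2 lay among the saline arrays, and the difference was -0.13 (SE 0.086, 95% interval -0.33 to 0.068). Leaving out SAHA replicate 1 gave -0.056, and leaving out SAHA replicate 2 gave -0.21 at an unadjusted p of 0.023 in limma. Eed, which binds trimethylated H3K27 and activates the enzyme, was at 8.33, 8.24 and 8.21 in saline and at 8.05, 8.22 and 8.13 in SAHA, a difference of -0.13 (SE 0.068). A second probe set of Eed was dim, with a mean of 4.78, and differed by 0.21, and with the mean of both probe sets the difference of Eed was 0.040.

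The H3K27 demethylase Kdm6b (Jmjd3), an inducible enzyme, was at 7.03, 7.11 and 7.14 in saline and at 6.98, 7.27 and 7.15 in SAHA, with a difference of 0.040 (SE 0.082). Both the lowest and the highest array were SAHA arrays. Dot1l, the H3K79 methyltransferase, differed by -0.072 (SE 0.082), with 7.61, 7.56 and 7.81 in saline and 7.63, 7.50 and 7.64 in SAHA.

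Grouped by activity, the 19 genes of methyltransferases, their complex subunits and Kmt2e had a median difference of 0.00056 and the 10 demethylase genes one of -0.033. After quantile normalization the medians were 0.052 and 0.022, so the direction for the demethylases turned. Each group held 1 gene at an unadjusted p under 0.05 and lower, Setd2 and Kdm3a, where 5.56% of all genes were. The SD among arrays of a group had a median of 0.054 in saline and 0.068 in SAHA over the 29 genes, against 0.083 and 0.089 over all genes. SAHA replicate 1 was the lowest of the 6 arrays for 14 of the 29, where it was the lowest for 21.3% of all genes. On this array the median against saline was -0.083 over all genes of the 3 brightest deciles and -0.093 over the enzymes there. Without this array the groups of 6 genes did not overlap with SAHA higher, Ezh1, Ezh2, Kdm3b, Kdm6b, Kmt2c and Nsd1, where 18.3% of all genes did so, and Setd2, Kdm3a and Kdm2b still did not overlap with SAHA lower, where 13.5% of all genes did so.

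Differences over all genes followed the signal, and most of these enzymes are bright: 17 of the 29 lie above the upper quartile of the signal. The median difference over all genes was 0.11 in the decile second from the dimmest and between -0.059 and -0.050 in the 3 brightest deciles. Of the 18 genes of the list in those 3 deciles, 12 were lower in SAHA with a median of -0.033, and over all genes there 4575 of 5981 were lower with a median of -0.053. After quantile normalization 11 of the 29 were lower, against 15 in the deposited values. The sign turned for 6 genes, Kmt2c, Kmt2d, Kdm5a, Kdm5b, Kdm2a and Suv39h2, and the same number turned after cyclic loess. Quantile normalization left Setd2, Kdm3a and Kdm2b without overlap, lower in SAHA, and added 6 genes that were higher without overlap, Ehmt1, Ezh1, Ezh2, Kdm3b, Nsd1 and Setd7, where 10.1% of all genes were then higher and 9.65% lower without overlap.

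**Figure D3:**
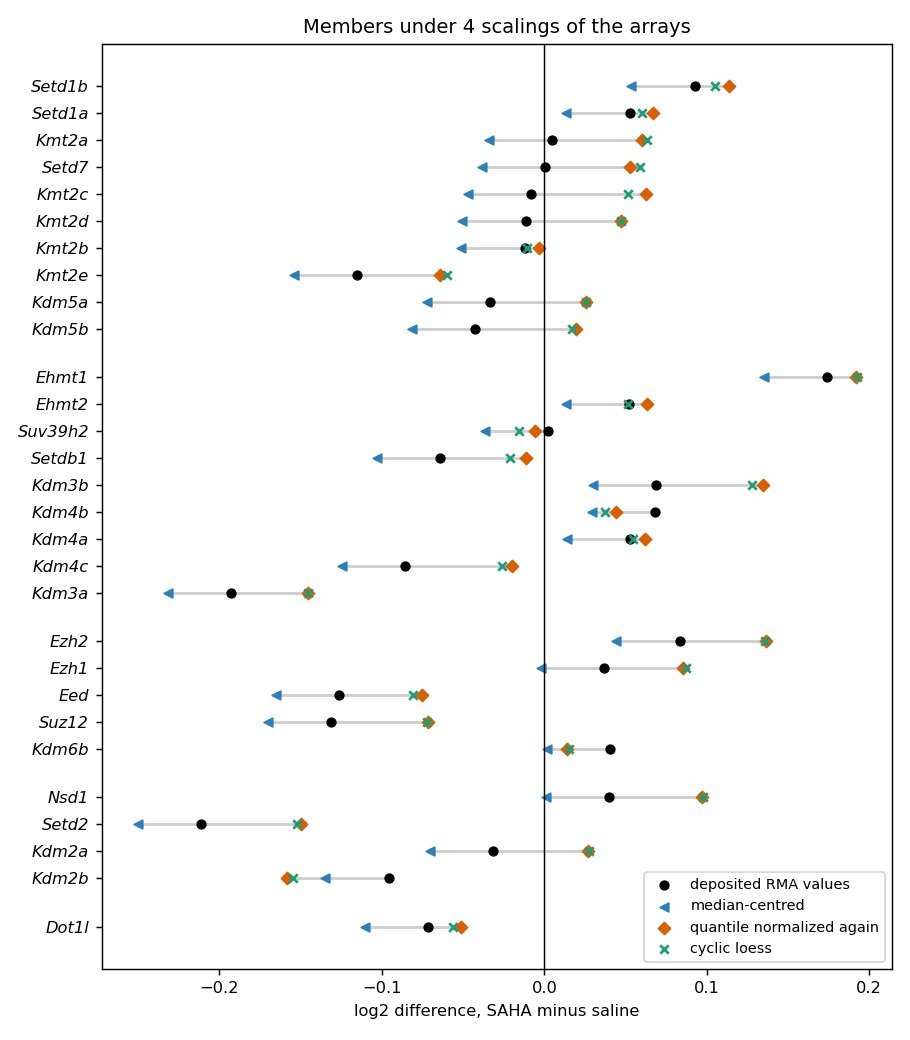
Log2 difference, SAHA minus saline, on the horizontal axis for each of the 29 genes under 4 scalings: the deposited values, values centred on each array's median, and values normalized again by quantiles or by cyclic loess. Setd2, Kdm3a and Kdm2b stay below 0 under all 4 and Ehmt1 above 0, while Kmt2c, Kmt2d, Kdm5a, Kdm5b and Kdm2a cross 0 between the deposited and the quantile normalized values.

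**Figure D4:**
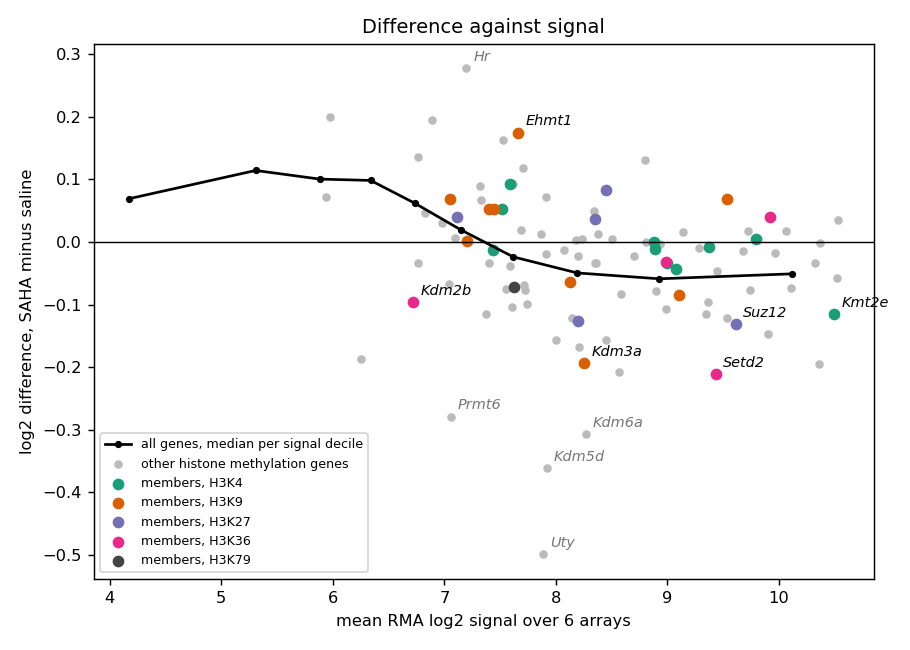
Log2 difference, SAHA minus saline, on the vertical axis against the mean log2 signal over the 6 arrays, with the 29 genes in colour by residue, the 71 other histone methylation genes in grey and a black line for the median over all genes in each decile of the signal. The line runs from 0.069 in the dimmest decile to -0.051 in the brightest, and Setd2 and Kdm3a lie below it while Ehmt1 lies above it.

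The wider machinery of histone methylation was given by 71 further genes of complex subunits, partners, readers and other methyltransferases and demethylases. At an unadjusted p under 0.05 in limma, 5 of the 71 were lower and 2 higher, and 0 passed after adjustment, at a lowest adjusted p of 0.134. These 7 make 9.86% of the list, where the background was 17.4%. The groups did not overlap for 14 of the 71 with SAHA lower, where 10.4% of all genes did so, and for 3 with SAHA higher, where 13.6% did so. Of the 5981 genes in the 3 brightest deciles, 1248 were lower and 219 higher without overlap, and whether the list differs from them was not tested. The 71 had a median difference of -0.023.

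The X-linked H3K27 demethylase Kdm6a (Utx), the paralogue of Kdm6b, was at 8.55, 8.36 and 8.34 in saline and at 7.98, 8.16 and 8.19 in SAHA. All SAHA arrays lay below all saline arrays, and the difference was -0.31 (SE 0.085), at an unadjusted p of 0.0071 and an adjusted p of 0.161 in limma. Kdm6a is known to escape X inactivation. Saline replicate 1, the array with Xist signal, was also the array with the most Kdm6a signal. Without that array the difference of Kdm6a was -0.24, at an unadjusted p of 0.025 in limma. Without that array and SAHA replicate 3 it was -0.28, at an unadjusted p of 0.024 in limma. The labels do not give the sex of the mice, and the part of sex in these differences was not tested. The X-linked H3K4 demethylase Kdm5c differed by -0.12 (SE 0.059), with saline replicate 1 at 7.41 inside the range of the saline arrays, 7.41 to 7.48. All SAHA arrays of Kdm5c lay below all saline arrays, where 10.4% of all genes were lower without overlap. Phf8, an X-linked demethylase that binds trimethylated H3K4, differed by -0.069 (SE 0.073).

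The Y-linked paralogues Kdm5d and Uty set another array apart. Kdm5d was at 8.11, 8.11 and 8.09 in saline and at 8.08, 7.90 and 7.23 in SAHA, and Uty at 8.19, 8.12 and 8.10 and at 7.93, 8.24 and 6.74. SAHA replicate 3 was the lowest for both, and without it and saline replicate 1 the differences were -0.11 and -0.025 in place of -0.36 and -0.50. With both arrays left out, the differences of Setd2, Kdm3a and Kdm2b were -0.18, -0.18 and -0.097 and that of Ehmt1 was 0.094. The unadjusted p in limma was then 0.059 for Setd2 and 0.082 for Kdm3a, with 2 arrays per group, and 0 of the 29 enzymes stayed under 0.05. Other enzymes moved too. The differences of Kdm5a and Kdm5b were then -0.14 and -0.12, and these genes and Kmt2b, at -0.057, joined Setd2, Kdm3a and Kdm2b as lower without overlap, 6 of 29, where 19.8% of all genes were. Kdm4a, at 0.085, and Suv39h2, at 0.11, were higher without overlap, where 22.5% of all genes were. Setd1b went to 0.0025, Kdm6b to 0.0014, Kdm4b to 0.017, Ehmt2 to 0.0093, Kdm3b to 0.022 and Ezh2 to 0.028. Kmt2a went to -0.063, Setdb1 to 0.0020 and Dot1l to -0.12.

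Among the autosomal genes of the wider list, Prmt6, which methylates H3R2 and counters H3K4 methylation, had the smallest p. It was at 7.29, 7.17 and 7.13 in saline and at 6.86, 6.94 and 6.94 in SAHA, with a difference of -0.28 (SE 0.066) and an adjusted p of 0.134 in limma. All SAHA arrays were lower, and the difference was -0.31 after quantile normalization. Smyd2, a lysine methyltransferase of H3K36 and p53, differed by -0.21 (SE 0.067), Setdb2, a relative of Setdb1, by -0.19 (SE 0.067), and Prmt1, the main asymmetric arginine methyltransferase, by -0.16 (SE 0.067). Hr, a Jumonji corepressor that demethylates H3K9, was higher, at 7.02, 6.91 and 7.24 in saline and at 7.39, 7.28 and 7.33 in SAHA, a difference of 0.28 (SE 0.090). Mllt6, a partner in the Dot1l network, differed by 0.16 (SE 0.059). These genes were without overlap between the groups, and their adjusted p in limma lay at 0.196 for Smyd2, 0.226 for Setdb2, 0.281 for Prmt1, 0.199 for Hr and 0.232 for Mllt6.

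Shared subunits of the H3K4 methyltransferase complexes and their partners were lower for 13 of 14 genes, with a median of -0.058, while 0 were at an unadjusted p under 0.05 and lower, where 5.56% of all genes were. Most are bright: 10 of the 14 lie above the upper quartile of the signal, and 76.5% of all genes in the 3 brightest deciles were lower. Among them Dpy30, Cxxc1, Psip1 and Ncoa6 were lower without overlap, by -0.097 (SE 0.056), -0.099 (SE 0.058), -0.19 (SE 0.093) and -0.083 (SE 0.057), or 4 of 14, where 10.4% of all genes were. Psip1 was highest on saline replicate 1, at 10.65, and its difference without that array and SAHA replicate 3 was -0.054. After quantile normalization 8 of the 14 were lower and the median was -0.029. Dpy30 belongs to the core that all of the SET1 and MLL complexes share. The other subunits of this core, Wdr5, Ash2l and Rbbp5, differed by -0.034 (SE 0.086), -0.034 (SE 0.060) and -0.0038 (SE 0.062).

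The tissue label was checked against marker genes. The markers of excitatory cortical neurons lay between percentiles 75.8 and 99.9 of the signal, those of GABAergic interneurons between 75.2 and 98.5, and those of choroid plexus between 10.4 and 53.0. Markers of striatal neurons lay between 46.3 and 79.5. The medians of these 4 markers against the saline mean were -0.091, -0.17 and 0.26 in saline replicates 1 to 3. In SAHA replicates 1 to 3 they were -0.067, -0.035 and 0.26, so replicate 3 was the highest in both groups. Mean log2 levels of 5 oligodendrocyte markers ranged from 8.73 to 8.83 in saline and from 8.63 to 8.92 in SAHA, where their medians against saline were -0.19, -0.22 and 0.14 in SAHA replicates 1 to 3. Those of 3 red cell genes ranged from 6.18 to 6.21 in saline and from 6.29 to 6.56 in SAHA, with 3 of 3 higher and 1 of 3, Slc4a1, without overlap, where 13.6% of all genes were higher without overlap. Slc4a1 and Epb42 differed by 0.38 and 0.29, and by 0.30 and 0.18 after quantile normalization, while Alas2 differed by 0.044. Slc4a1 and Epb42 lie in signal deciles 4 and 2, where the median differences over all genes were 0.098 and 0.11. The markers of excitatory neurons ranged from 10.13 to 10.15 and from 10.10 to 10.14, with 3 of 5 lower. Of these, Slc17a7 and Neurod2 were higher without overlap, by 0.11 and 0.10, and Neurod6 was lower without overlap, by -0.23. Of 6 interneuron markers 2 were higher and 4 lower. Among them Slc32a1 was higher without overlap, by 0.085, and Vip differed by -0.20. Of 6 astrocyte markers 3 were higher and 3 lower, and Aldoc and Slc1a2 were higher without overlap, by 0.080 and 0.052. Of 6 microglia markers 3 were higher and 3 lower, and Aif1 and Csf1r were lower without overlap, by -0.21 and -0.10. Over all genes, 13.6% were higher and 10.4% lower without overlap. Of 6 choroid plexus markers 5 were higher, and Aqp1 was so without overlap, by 0.42, at an adjusted p of 0.116 in limma. Ttr, the brightest of the 6, went the other way, by -0.29 (SE 0.34). The median of the 6 was 0.14, and it was 0.033 after quantile normalization, with 2 of 6 lower. The part of these cell types in the differences of Setd2, Kdm3a and the other enzymes was not tested.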

How the data were processed

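Frontal cortex RNA of 3 saline and 3 SAHA arrays was measured on an Affymetrix whole-transcript array. The deposited values are log2 signals that the authors made with Affymetrix Expression Console and RMA, per the submitters' processing notes; versions are not given in the sources used here. RMA as usually run normalizes probes by quantiles, and differences of dim probe sets come out compressed. Precision is limited by having few arrays. Of 35556 probe sets, 21789 had 1 gene symbol, 1621 several and 12146 none; the brightest single-symbol probe set stood for each of 19938 genes. Groups were compared over all genes with limma 3.58.1 in R 4.3.3 (lmFit and eBayes), with Benjamini-Hochberg adjustment; every adjusted p comes from it. The procedure was tested on simulated data with 200 changed genes. There limma recovered 13.4% of changes of 0.3 log2 and 91.6% of changes of 1 log2 at an adjusted p under 0.05. The differences of the 29 enzymes were all smaller than 0.3 log2. Of the 29 enzymes, each with an unadjusted p under 0.05 in limma or without overlap between the groups is given array by array. Other genes shown that way were picked with their values known. Beyond the 29, genes that met this rule were not all shown so. The members and lists were chosen with earlier results of these data known. Alternatives changed normalization, signal filter, probe set choice, variance model, array weights, the replicate block and the arrays included. Promoters came from the RefSeq table of GRCm38.p6. Ash1l, Suv39h1 and Ddx3y were not analysed here.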

Additional observations from a re-analysis of the deposited data

How the results depend on the processing

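With limma and Benjamini-Hochberg adjustment, 0 of 19938 genes passed an adjusted p of 0.05 (3472 at an unadjusted p under 0.05), against 27 when only genes reaching the median signal were kept, 28 under a variance trend and 31 under a robust trend; none of the 29 enzymes did so in any alternative. Genes higher at an unadjusted p under 0.05 numbered 2364, and 1557 after median centring, 1340 after quantile and 1318 after cyclic loess normalization. Of the 9969 genes reaching the median signal, 587 were higher when these were fitted alone and 410 in the main fit. Genes higher numbered 1493 without saline replicate 1 and SAHA replicate 3. Genes lower numbered 1108, and 2024 after centring, 1720 and 1697 with the trends, and 590 without those 2 arrays. Leaving out 1 array gave 1725 to 2546 higher and 700 to 1328 lower. Among the 29 enzymes, 1 was higher (Ehmt1) after quantile or loess normalization, with either trend, or among brighter genes, and 0 to 1 with 1 array left out; 2 were lower, against 3 after quantile or loess normalization (with Kdm2b), 3 with either trend (with Kmt2e), 2 to 4 with 1 array left out and 0 without both. Groups of 6 enzymes were higher without overlap after quantile or loess normalization, 2 without both arrays and 1 to 6 with 1 left out; 6 were lower without both and 3 to 8 with 1 left out. Over all genes, 22.5% were higher and 19.8% lower without overlap when both arrays were left out, and 17.1% to 21.95% higher and 13.5% to 19.2% lower with 1 left out. Of the 71 other genes, 2 were higher, against 1 after centring, 0 without both arrays and 1 to 2 with 1 left out; 5 were lower, against 9 after centring, 10 with either trend, 2 without both and 3 to 11 with 1 left out. The median over the enzymes was -0.047 after centring and 0.027 after quantile or loess normalization. The sign of 15 enzymes turned in at least 1 alternative and that of 14 held in all 16. Centring gave -0.034 for Kmt2a, -0.038 for Setd7, -0.037 for Suv39h2 and -0.0021 for Ezh1. Quantile and loess gave 0.063 and 0.051 for Kmt2c, 0.047 and 0.047 for Kmt2d, 0.025 and 0.025 for Kdm5a, 0.019 and 0.017 for Kdm5b, 0.027 and 0.027 for Kdm2a, and -0.0061 and -0.016 for Suv39h2. The mean of probe sets gave 0.040 for Kmt2d and 0.040 for Eed. Array weights gave -0.014 for Kmt2a, 0.0053 for Kmt2d, -0.0031 for Setd7 and -0.0038 for Suv39h2. Without both arrays Kmt2a was at -0.063, Kmt2d at 0.0063 and Setdb1 at 0.0020. With 1 array left out, the range was -0.064 to 0.069 for Kmt2a, -0.047 to 0.016 for Kmt2b, -0.040 to 0.041 for Kmt2c, -0.055 to 0.024 for Kmt2d, -0.036 to 0.029 for Setd7, -0.089 to 0.0092 for Kdm5a, -0.0080 to 0.097 for Ehmt2, -0.055 to 0.056 for Suv39h2, -0.026 to 0.12 for Kdm6b, -0.061 to 0.0026 for Kdm2a and -0.12 to 0.0038 for Dot1l. The cause of these changes was not tested. Deviations from the group means correlated at -0.10, -0.079 and 0.015 for same-numbered arrays. For differently numbered arrays the values lay between -0.084 and 0.15. No pairing by number was seen, but correlations over all genes cannot exclude a pairing that the labels do not state. With the replicate block 2 enzymes and 3 of the 71 other genes were lower at an unadjusted p under 0.05 in limma.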

Other observations

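Of the 9 genes of arginine methylation, Prmt6 and Prmt1 included, 6 were lower, with a median of -0.12, which was -0.072 after quantile normalization. Beside those 2, Prmt2 differed by -0.17 (SE 0.081), Prmt5 by -0.16 (SE 0.083) and Prmt3 by -0.12 (SE 0.083), with overlapping groups, and Jmjd6 was higher without overlap by 0.067 (SE 0.058). The 3 H4K20 methyltransferases had a median of 0.072, with 2 higher and 0 at an unadjusted p under 0.05 in limma. With 3 arrays per group, the median SE over all genes was 0.077 log2.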
